A study of Arabidopsis thaliana with 8 samples.

Results

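The comparison described here is the step from sap18sr45 to asap, a pair of Arabidopsis thaliana mutant lines that by their labels differ by an insertion in ACINUS. The asap line carries T-DNA insertions in SAP18 (SALK_083076), SR45 (sr45-1, SALK_004132) and ACINUS (SALK_078554), and was obtained by crossing sap18 sr45 with sap18 acinus plants. The sap18sr45 line carries the SAP18 and SR45 insertions, so by the labels both lines share those alleles, and each allele is a single insertion line. The sr45 line carries the SR45 insertion alone and Col0 is the wild-type accession, and both give levels, a contrast of their own and part of the estimate of spread. All plants were whole seedlings of 11 days, grown on Murashige and Skoog medium at 22 °C with 16 h of light and 8 h of dark, and their mRNA was sequenced. The members were chosen by genotype label, which gave 4 of the 8 libraries in the series, 2 of asap and 2 of sap18sr45. Values were analysed for 9536 genes, 8046 of chromosome 1 and 1490 of a part of chromosome 2, of which 5261 had enough reads to be tested. SAP18 and ACINUS themselves were not analysed here, so the genotypes were checked at SR45 alone. Nothing in the labels ties the 2 libraries of a line to separately grown plants, and the p-values therefore cover only library-to-library spread, which may be technical.

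SAP18, SR45 and ACINUS form the ASAP complex, named after its roles in apoptosis and splicing in animals. In the related PSAP complex, PININ takes the place of ACINUS as the partner of SAP18 and SR45 (RNPS1 in animals). Both are peripheral to the exon junction complex, which is deposited on spliced mRNA by the core proteins eIF4A3, MAGO, Y14 and Barentsz and is read by the nonsense-mediated decay machinery. In Arabidopsis, mutants of these proteins are known for altered splicing, late flowering and changed leaf and root growth.

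Total counts over the genes with values were 2119471 and 2634021 in asap, against 3889636 and 2504140 in sap18sr45, and ranged from 1295244 to 4052420 over the 8 libraries. In these totals 3 counts correspond to between 0.74 and 2.32 CPM, which are counts scaled to one common library size. The spread between the 2 libraries of a genotype, as the biological coefficient of variation, was 14.2% in asap and 4.51% in sap18sr45, and 1 shared estimate was used in the test. On the first principal component of log CPM, which held 48.8% of the variance, asap lay at 33.9 and 34.1, sap18sr45 at -4.1 and -3.44, and Col0 at -30.0 and -30.1.

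SR45 (AT1G16610, chromosome 1), the insertion target measured in these data, had 6.23 and 3.85 cRPKM in asap, against 13.6 and 14.4 cRPKM in sap18sr45. A cRPKM is a read count scaled to the mappable length of the gene and to the mapped reads of the library, so it can be compared between genes. The levels in sr45 were 6.62 and 4.99 cRPKM and those in Col0 24.2 and 21.0 cRPKM. Reads of SR45 thus remained in every mutant. The asap and sr45 libraries lay close to each other, and both sap18sr45 libraries lay above them and below Col0, although all 3 lines are labelled with an SR45 insertion and the methods name 1 allele. The log2 change from sap18sr45 to asap was -1.60 ± 0.20 (SE, n = 2 libraries each), with an adjusted p of 4.94e-07 in edgeR's quasi-likelihood test. Whether the SR45 allele or the background of the sap18sr45 line differs was not tested, and the acinus allele, this difference in SR45 transcript and other differences between the lines cannot be told apart as sources of the values below.

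Of the 9 tested genes of the ASAP, PSAP, exon junction and decay list, 3 were higher in asap, 3 were lower and 3 were not called, and their median log2 change was -0.21. Over all 5261 tested genes, 15.4% were higher and 16.7% lower, and the median was 0.01. PININ (AT1G15200), the counterpart of ACINUS in the PSAP complex, had 63.2 and 51.7 cRPKM in asap, against 36.8 and 40.6 cRPKM in sap18sr45 (log2 change 0.46 ± 0.10, SE; adjusted p = 0.000543). Both asap libraries were above every other library of the series for this gene. The core proteins Y14 (log2 change 0.43 ± 0.11) and MEE63, the plant MAGO (0.26 ± 0.07), were also higher, at 58.5 and 71.0 cRPKM and at 183 and 182 cRPKM in asap, against 41.6 and 48.5 cRPKM and 141 and 142 cRPKM in sap18sr45. The Barentsz homologue AT1G80000 (-0.44 ± 0.13) and UPF3 (-0.36 ± 0.11), a decay factor that binds the exon junction complex, were lower. Without sap18sr45 replicate 1 the list had 1 higher gene, PININ, and 1 lower gene, SR45. UPF3 also lost its call without sap18sr45 replicate 2 (adjusted p = 0.0952) or asap replicate 1 (adjusted p = 0.0691), MEE63 without sap18sr45 replicate 2 (adjusted p = 0.0607) and Y14 without asap replicate 2 (adjusted p = 0.0928). Among the 9 tested SR proteins and other splicing factors, 2 were higher and 1 was lower. SR45A rose, at 56.3 and 51.0 cRPKM in asap, against 32.0 and 33.6 cRPKM in sap18sr45 (0.60 ± 0.10, SE; adjusted p = 3.16e-05). SCL33 was also called higher, but not without sap18sr45 replicate 1 (adjusted p = 0.153). U2AF35A, a subunit of the factor that recognises the end of the intron, was called lower (log2 change -0.32 ± 0.09), but not without sap18sr45 replicate 2 (adjusted p = 0.151).

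Across all tested genes, 1689 (32.1%) differed between asap and sap18sr45 at an adjusted p under 0.05, of which 812 (15.4%) were higher in asap and 877 (16.7%) were lower. Most of the changes were small, since 1270 of the called genes changed by less than 2-fold. At 2-fold or more, 275 genes (5.23%) were higher and 144 (2.74%) lower, and at 4-fold or more 72 were higher and 23 lower. The median log2 change was 0.78 among the rises and -0.56 among the falls. A fold rule modelled on the study's asked for at least 2-fold in every pair of libraries, on counts after quantile normalization. Among 3602 expressed genes, 96 (2.67%) were higher by this rule and 60 (1.67%) lower. The share of calls that were higher was 48.1% with TMM scaling of counts, but 64.6% (909 higher, 499 lower) when the test was run on log2(cRPKM + 0.5), a scale on which the median of all genes lay at 0.10, and 65.1% (942 higher, 504 lower) on log2(cRPKM + 1). Without sap18sr45 replicate 1 the calls numbered 990 (447 higher, 543 lower) and without sap18sr45 replicate 2 they numbered 1125 (521 higher, 604 lower).

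**Figure D1:**
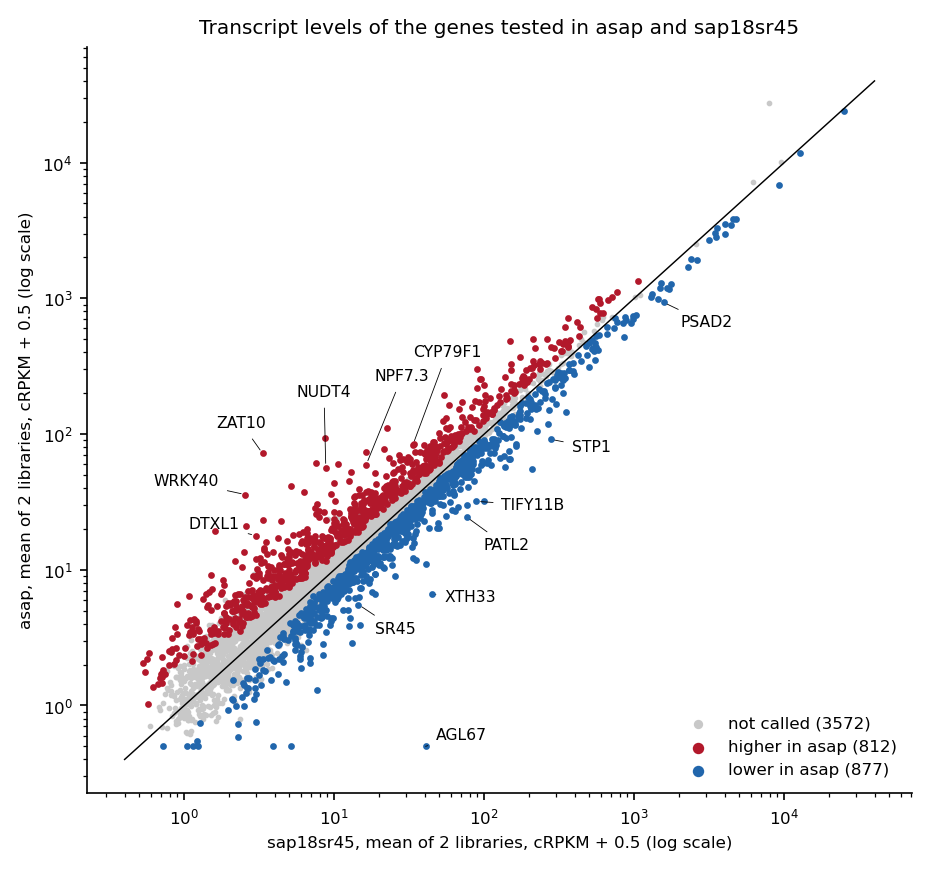
Each point is 1 of 5261 tested genes, with its mean level in sap18sr45 on the x axis and in asap on the y axis (cRPKM + 0.5, mean of 2 libraries, log scales), coloured where the gene was called higher (812) or lower (877) in asap. ZAT10 and WRKY40 lie far above the diagonal, and AGL67, at 0 cRPKM in asap, lies far below it.

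The plot of levels in both lines shows that the rises reached further from the diagonal than the falls, apart from AGL67. Regulators induced by stress and wounding were among the largest rises. ZAT10 (AT1G27730), a C2H2 zinc finger repressor of the stress response, had 75.7 and 67.4 cRPKM in asap, against 3.87 and 1.78 cRPKM in sap18sr45, a 22.0-fold rise (log2 change 4.46 ± 0.24, SE; adjusted p = 6.22e-14). WRKY40 (AT1G80840), a defence and abscisic acid regulator, had 38.3 and 32.3 cRPKM in asap, against 2.18 and 1.92 cRPKM in sap18sr45, a 15.7-fold rise (3.97 ± 0.23, SE; adjusted p = 1.29e-13). For both genes the sr45 and Col0 libraries stood close to sap18sr45, at 2.60 to 8.40 cRPKM for ZAT10 and 3.38 to 4.05 cRPKM for WRKY40. NUDT4 (AT1G18300), a nudix hydrolase, had 55.6 and 56.7 cRPKM in asap, against 7.51 and 9.05 cRPKM in sap18sr45 (2.67 ± 0.16, SE; adjusted p = 4.00e-13), and the sr45 and Col0 libraries again stood close to sap18sr45, at 8.63 to 11.0 cRPKM.

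The other 9 of the 12 largest rises had lower levels. DTXL1 and DTXL2, transporters of the MATE family at neighbouring loci of chromosome 2, had 16.6 and 18.1 cRPKM and 1.47 and 1.64 cRPKM in asap, against 2.19 and 2.79 cRPKM and 0.06 and 0 cRPKM in sap18sr45. DTXL2 rested on 13 and 18 counts in asap, against 1 and 0 counts in sap18sr45. ERF018 (log2 change 3.51 ± 0.64) and ERF022 (2.68 ± 0.59) encode ethylene response factors, and ERF022 was not called without sap18sr45 replicate 1 (adjusted p = 0.0629). BGLU22, a beta-glucosidase, had 9.57 and 7.88 cRPKM in asap, against 1.27 and 0.73 cRPKM in sap18sr45 (2.94 ± 0.37, SE; adjusted p = 4.91e-07). UMAMIT19, an amino acid transporter family member, MMP, a matrix metalloproteinase, and DGR1, a cell wall DUF642 protein, rose by 2.76 ± 0.61, 2.73 ± 0.62 and 2.62 ± 0.44 on the log2 scale. The lipase DLAH rested on 9 and 23 counts in asap, against 2 and 0 counts in sap18sr45, and lost its call without sap18sr45 replicate 2 (adjusted p = 0.0628). Of the genes without a symbol, chosen after their values were seen, the non-coding RNA AT1G67105 had 86.0 and 101 cRPKM in asap, against 6.76 and 9.68 cRPKM in sap18sr45 (3.44 ± 0.19, SE; adjusted p = 9.08e-14).

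The largest fall was that of AGL67 (AT1G77950), a MADS-box transcription factor gene known from maturing seeds. It had 0 counts in both asap libraries, against 550 and 295 counts in sap18sr45, which correspond to 43.8 and 36.5 cRPKM. Both sr45 and both Col0 libraries also had 0 counts, so AGL67 was read in sap18sr45 alone among the 4 genotypes. Against a floor of 3 counts over both asap libraries the level was at least 228-fold lower in asap (adjusted p = 4.06e-14). Of the 9 tested MADS-box genes of 37 with values, 6 were not called. AGL3 (SEP4), a floral organ identity factor, was lower in asap at 2.62 and 5.27 cRPKM, against 11.6 and 12.9 cRPKM in sap18sr45 (-1.70 ± 0.24, SE; adjusted p = 3.02e-06). AGL12, a root MADS-box gene, was called higher on 20 and 26 counts in asap, against 6 and 6 counts in sap18sr45, but not without sap18sr45 replicate 1 (adjusted p = 0.137). The flower, seed and shoot meristem list had 3 tested genes of 10, SEP3, STM and KNAT2, and no call by edgeR, with adjusted p-values of 0.682 to 0.881, or by DESeq2. Its summed level was 12.3 and 8.41 cRPKM in asap, against 10.1 and 11.3 cRPKM in sap18sr45.

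XTH33 (AT1G10550), a xyloglucan endotransglucosylase of the cell wall, had 6.79 and 5.45 cRPKM in asap, against 45.7 and 42.6 cRPKM in sap18sr45 (-2.97 ± 0.18, SE; adjusted p = 4.51e-13). The sr45 and Col0 libraries lay between, at 12.9 to 16.6 cRPKM, so sap18sr45 was the highest genotype and asap the lowest. STP1 (AT1G11260), a monosaccharide transporter repressed by sugars, had 94.2 and 87.8 cRPKM in asap, against 281 and 272 cRPKM in sap18sr45 (-1.71 ± 0.06, SE; adjusted p = 3.72e-17). Its levels were 216 and 220 cRPKM in sr45 and 850 and 851 cRPKM in Col0. PATL2 (AT1G22530), a phosphoinositide-binding protein of membrane traffic, fell to 20.3 and 27.6 cRPKM in asap, against 78.2 and 73.7 cRPKM in sap18sr45 (-1.76 ± 0.10, SE; adjusted p = 5.63e-13). AUL1, an auxilin-like gene, fell by 1.86 on the log2 scale to 2.35 and 2.34 cRPKM in asap, against 8.10 and 7.70 cRPKM in sap18sr45.

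CYCA1-2 (TAM), a meiotic cyclin, rested on 3 and 2 counts in asap, against 36 and 19 counts in sap18sr45 (-3.07 ± 0.69, SE; adjusted p = 0.000991). The other falls among the 12 largest, ZHD14, RL6, RPF2, AP180 and AtRLP6, had between 2 and 17 counts in each asap library and each lost its call without at least 1 library. The adjusted p was 0.184 for ZHD14, 0.217 for RL6, 0.203 for RPF2 and 0.19 for AP180 without sap18sr45 replicate 2, and 0.202 for AtRLP6 without sap18sr45 replicate 1. All but AtRLP6 also lost it without asap replicate 2, AP180 without asap replicate 1 (0.0509) and ZHD14 and RPF2 without sap18sr45 replicate 1 (0.0532 and 0.0881). Besides AGL67, 6 called genes were at 0 counts in both asap libraries, and the largest bound among them was that of AT1G62914, a pentatricopeptide repeat gene at least 11.6-fold lower on 27 and 16 counts in sap18sr45. These genes, and the DnaJ-domain gene AT1G56300, have no symbol and were chosen after their values were seen. AT1G56300 had 1.45 and 0.13 cRPKM in asap, against 6.73 and 7.57 cRPKM in sap18sr45, while no sr45 or Col0 library was above 0.87 cRPKM.

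**Figure D2:**
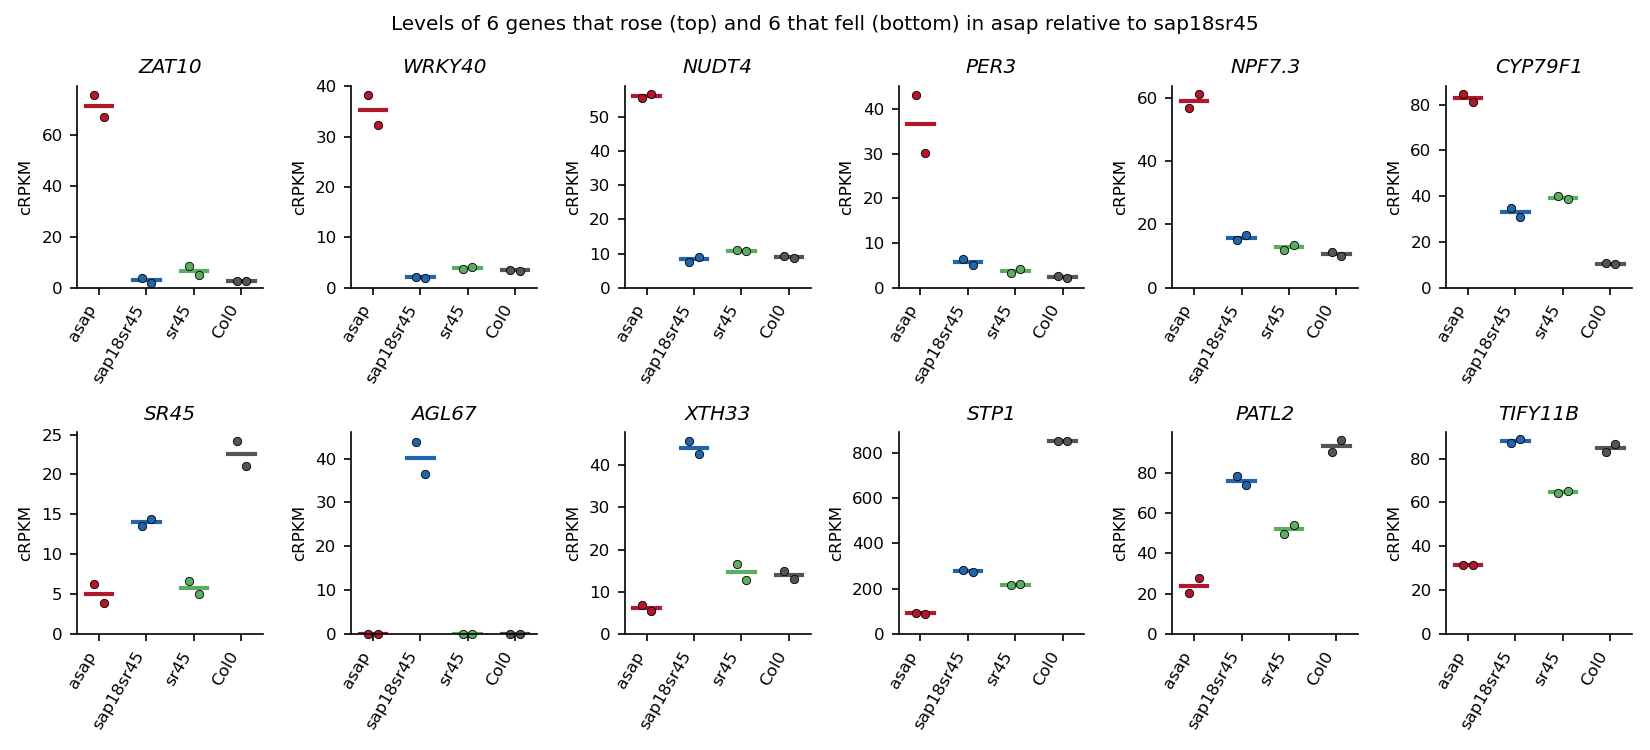
Levels in cRPKM (points, 1 per library; bars, mean of 2 libraries) in asap, sap18sr45, sr45 and Col0 of 6 genes that rose in asap relative to sap18sr45 (top) and 6 that fell (bottom). AGL67 is at 36.5 and 43.8 cRPKM in sap18sr45 and at 0 in the other 6 libraries, and ZAT10 is at 67.4 and 75.7 cRPKM in asap and at 8.40 cRPKM or less elsewhere.

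Among transcription factors of the stress response, the called genes were all higher in the WRKY list and were divided in the AP2/ERF list. Of 10 tested WRKY genes of 18 with values, 6 were higher in asap, none was lower, and the median log2 change was 1.08. Without asap replicate 2, 1 WRKY gene was called lower. WRKY57, a drought tolerance factor, had 22.1 and 19.3 cRPKM in asap, against 9.32 and 10.2 cRPKM in sap18sr45 (0.97 ± 0.17, SE; adjusted p = 7.06e-05), and WRKY65 changed by 1.18 ± 0.26. WRKY3 and WRKY4, which act in resistance to fungi, were not called, at -0.12 and -0.39. Of 22 tested AP2/ERF genes of 42, 7 were higher and 4 lower, with a median of 0.46, beside 15.4% higher and 16.7% lower of all tested genes. RAV2 (TEM2) and TEM1, repressors of flowering, were among the abundant rises, with RAV2 at 223 and 234 cRPKM in asap, against 102 and 96.4 cRPKM in sap18sr45 (1.09 ± 0.07, SE; adjusted p = 3.15e-13), and TEM1 at 75.3 and 90.0 cRPKM, against 41.6 and 37.0 cRPKM (0.96 ± 0.10). ERF11, a repressor in ethylene and gibberellin signalling, rose by 2.45 ± 0.45. ERF012 fell to 24.6 and 29.2 cRPKM in asap, against 61.9 and 58.4 cRPKM in sap18sr45 (-1.26 ± 0.11, SE; adjusted p = 8.70e-10), and WRI4, an activator of wax synthesis, fell to 51.3 and 44.5 cRPKM, against 79.1 and 79.0 cRPKM (-0.84 ± 0.09). Without sap18sr45 replicate 1 the AP2/ERF list had 2 lower genes instead of 4. Of the 7 tested C2H2 zinc finger genes, 2 were higher, ZAT10 and ZFP7, and ZFP7 was not called without sap18sr45 replicate 1 (adjusted p = 0.168).

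Genes of the jasmonate list were called in both directions, with 4 of 15 tested genes higher, 4 lower and 7 not called. The list includes members of the lipoxygenase and oxophytodienoate reductase families, whose roles in jasmonate synthesis were not tested. Of all tested genes, 15.4% were higher and 16.7% lower. The JAZ repressors, which block jasmonate responses until the hormone triggers their degradation, were themselves divided. TIFY10A (JAZ1) had 15.3 and 15.6 cRPKM in asap, against 3.16 and 2.83 cRPKM in sap18sr45 (2.25 ± 0.24, SE; adjusted p = 2.03e-08). TIFY11B (JAZ6) had 31.3 and 31.5 cRPKM in asap, against 87.3 and 89.0 cRPKM in sap18sr45 (-1.60 ± 0.09, SE; adjusted p = 8.83e-14), and TIFY7 (JAZ9) fell by 0.58 on the log2 scale. MYC2, the transcription factor that the JAZ proteins repress, rose by 0.89 ± 0.17. OPR1, of the oxophytodienoate reductase family, had 87.2 and 86.9 cRPKM in asap, against 46.5 and 45.2 cRPKM in sap18sr45 (0.82 ± 0.09, SE; adjusted p = 3.68e-08), and the lipoxygenase LOX1 rose by 0.68 ± 0.15. LOX3 (-1.56 ± 0.34) and LOX6 (-0.74 ± 0.13), which make the jasmonate precursor in plastids, fell.

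The counts of the next 4 lists stand beside 15.4% higher and 16.7% lower of all tested genes. Of 8 tested genes of salicylic acid and defence, 2 were higher and 2 lower. PR5, a pathogenesis-related thaumatin-like protein, had 17.4 and 14.4 cRPKM in asap, against 3.49 and 5.15 cRPKM in sap18sr45 (1.80 ± 0.28, SE; adjusted p = 1.39e-05). NPR1, the salicylic acid receptor that acts upstream of the PR genes, had 6.0 and 5.64 cRPKM in asap, against 8.82 and 9.83 cRPKM in sap18sr45 (-0.78 ± 0.16, SE; adjusted p = 0.000482). ICS2, an isochorismate synthase, was called higher but not without sap18sr45 replicate 1 (adjusted p = 0.545) or asap replicate 2 (adjusted p = 0.0545). Of 16 tested calcium sensors and kinases, 4 were higher and 1 was lower. The calmodulin-like CML38, a component of hypoxia and wounding responses, rose by 2.02 ± 0.37 and CML23 by 1.22 ± 0.29, while the kinase CPK30 fell by 0.94 on the log2 scale. The lower genes of this list numbered 3 without asap replicate 1 and 2 without asap replicate 2. The heat shock list had 3 higher genes of 12 tested, 1 without sap18sr45 replicate 1, and 1 higher and 2 lower without asap replicate 2. HSP17.4B, a small heat shock protein, was at 22.4 and 26.1 cRPKM in asap, against 12.7 and 12.3 cRPKM in sap18sr45 (0.85 ± 0.21, SE; adjusted p = 0.00297). In the abscisic acid and dehydrin list 11 of 14 tested genes were not called, the dehydrin ERD10 rose by 0.55 ± 0.10 and HAB1, a phosphatase that inhibits abscisic acid signalling, fell by 0.47 on the log2 scale.

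Most of the nuclear genes of photosynthesis that were tested were lower in asap, by less than 2-fold. Of 24 tested genes of the photosystems and electron transport, 21 were lower and none was higher, with a median log2 change of -0.42, and of 11 tested genes of the light-harvesting antenna, 8 were lower and none was higher, with a median of -0.43. In the Calvin cycle list 5 of 6 genes were lower and 1, the aldolase FBA3, was higher. The shares of all tested genes were 15.4% higher and 16.7% lower. PSAD2, a subunit of photosystem I that docks ferredoxin, had 915 and 951 cRPKM in asap, against 1586 and 1552 cRPKM in sap18sr45 (-0.86 ± 0.07, SE; adjusted p = 4.71e-10). The sr45 and Col0 libraries had 1205 to 1476 cRPKM for this gene, above both asap libraries. PSBR of photosystem II had 6619 and 6997 cRPKM in asap, against 9266 and 9153 cRPKM in sap18sr45 (-0.54 ± 0.05, SE; adjusted p = 3.70e-09). PNSB1, of the NDH complex of cyclic electron flow, changed by -0.70 ± 0.08, PSBS, which dissipates excess light energy, by -0.58 ± 0.07, and the antenna genes LHCB2.2 and LHCA3 by -0.64 ± 0.07 and -0.43 ± 0.05. GAPB, the chloroplast glyceraldehyde-3-phosphate dehydrogenase, had 1166 and 1187 cRPKM in asap, against 1758 and 1677 cRPKM in sap18sr45 (-0.65 ± 0.06, SE; adjusted p = 6.75e-10). RBCS-1A, a small subunit of Rubisco, changed by -0.15 ± 0.05 (adjusted p = 0.011). Its libraries overlapped between the lines on the cRPKM scale, with 23908 and 24386 cRPKM in asap, against 24384 and 25429 cRPKM in sap18sr45, and its call was lost without sap18sr45 replicate 1 (adjusted p = 0.052), sap18sr45 replicate 2 (0.184) or asap replicate 1 (0.0923).

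Summed over the 24 photosystem genes, the level was 37801 and 38983 cRPKM in asap, against 47310 and 47754 cRPKM in sap18sr45, and over the 11 antenna genes it was 38105 and 38090 cRPKM in asap, against 40363 and 39786 cRPKM in sap18sr45. The sizes depended on the scaling. Quantile normalization gives each rank the same value in every library, so by its design it constrains changes among the most abundant genes. With quantile normalization the photosystem list had 13 lower and 2 higher genes at a median of -0.19, the antenna list 6 lower and 3 higher at -0.14, and PSAO (0.19) and LHCB1.3 (0.15) turned to higher. The Calvin cycle list then had 3 lower genes. In RNA of whole seedlings, fewer cells of a type and less RNA per cell cannot be told apart.

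Most cytosolic ribosomal protein genes were higher in asap, beside 15.4% higher and 16.7% lower of all tested genes. Of 43 tested ribosomal protein genes, 30 were higher, 1 was lower and the median log2 change was 0.38, and both asap libraries were above the other 6 libraries for 36 of them, a pattern that 18.9% of all tested genes had. RPL17B, a protein of the large subunit, had 883 and 973 cRPKM in asap, against 578 and 610 cRPKM in sap18sr45 (0.54 ± 0.08, SE; adjusted p = 3.83e-06). RPS17B, of the small subunit, had 611 and 615 cRPKM in asap, against 335 and 358 cRPKM in sap18sr45 (0.72 ± 0.09, SE; adjusted p = 6.51e-07). A larger change, 1.32 ± 0.13, was that of RPL9B at AT1G33120, whose near-identical copy AT1G33140 changed by 0.83 ± 0.10, so how reads were divided between the copies is uncertain. RPL18AA at AT1G29970 was the single member called lower, and was not called without sap18sr45 replicate 1 (adjusted p = 0.452) or asap replicate 2 (adjusted p = 0.161). Summed over the 46 loci the level was 14539 and 14643 cRPKM in asap, against 10296 and 10582 cRPKM in sap18sr45, 11346 and 10662 cRPKM in sr45, and 7273 and 7350 cRPKM in Col0. Without sap18sr45 replicate 1 the higher genes numbered 18.

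Genes often used as a reference in expression assays also differed, with 6 of 8 higher and none lower. Across all tested genes 15.4% were higher and 16.7% lower. GAPC2, the cytosolic glyceraldehyde-3-phosphate dehydrogenase, had 1078 and 1135 cRPKM in asap, against 756 and 781 cRPKM in sap18sr45 (0.42 ± 0.06, SE; adjusted p = 4.00e-06). The 3 loci of translation elongation factor eEF1A on chromosome 1, which are near-identical and can share reads, were all called higher. ACT8 changed by 0.26 ± 0.07, a call lost without sap18sr45 replicate 1 (adjusted p = 0.0539), sap18sr45 replicate 2 (0.0725) or asap replicate 2 (0.0632). TUBB5 and PP2AA3 were not called.

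**Figure D3:**
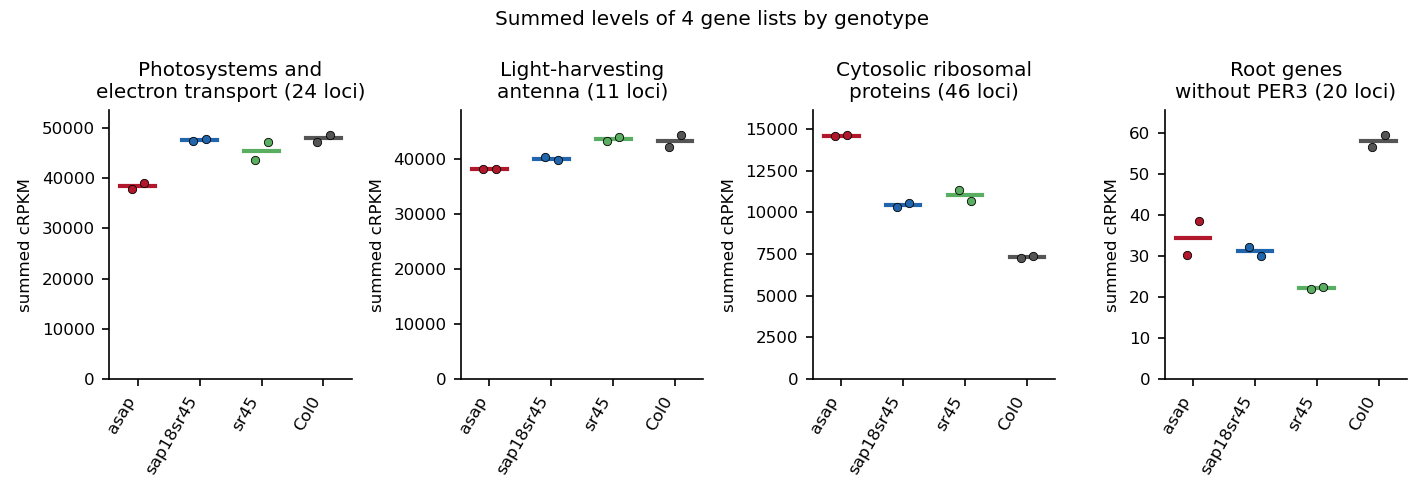
Summed level in cRPKM (points, 1 per library; bars, mean of 2 libraries) of 4 gene lists in asap, sap18sr45, sr45 and Col0, each axis starting at 0. The photosystem list is lowest in asap (37801 and 38983 cRPKM, against 47310 and 47754 cRPKM in sap18sr45), the ribosomal protein list is highest in asap (14539 and 14643 cRPKM, against 10296 and 10582 cRPKM), and the root list without PER3 overlaps between the lines.

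Genes of the root and of nutrient uptake contained both calls in asap and members near 0. In the root and root hair list, 12 of 21 genes were tested, 4 were higher and 2 lower, and the median was 0.99. The shares of all tested genes were 15.4% higher and 16.7% lower. PER3 (AT1G05260), a root peroxidase, had 43.1 and 30.1 cRPKM in asap, against 6.51 and 5.11 cRPKM in sap18sr45 (2.52 ± 0.21, SE; adjusted p = 1.56e-10). The other higher genes, PER7, LRX1 and NRT2.1, rested on 10 to 64 counts in an asap library, and each lost its call without sap18sr45 replicate 2 (adjusted p = 0.177, 0.327 and 0.0603) and without asap replicate 2 (adjusted p = 0.354, 0.429 and 0.31). LRX2, a root hair wall protein, fell to 0.99 and 0.47 cRPKM in asap, against 2.02 and 2.14 cRPKM in sap18sr45. The list had 2 higher genes without sap18sr45 replicate 1 or asap replicate 2, and 1, PER3, without sap18sr45 replicate 2. The summed level of the list was 73.2 and 68.5 cRPKM in asap, against 38.8 and 35.1 cRPKM in sap18sr45, and without PER3 it was 30.1 and 38.4 cRPKM in asap, against 32.3 and 30.0 cRPKM in sap18sr45 and 56.4 and 59.5 cRPKM in Col0. PER1 of the root list had 0 counts in all 8 libraries. The plot of summed levels shows the overlap without PER3, together with the separated levels of the photosystem and ribosomal lists. Of the 5 tested class III peroxidases, wall enzymes that include PER3 and PER7, 4 were higher, and 2 without sap18sr45 replicate 2, when PER7 and PER12 (adjusted p = 0.074) were not called. PER11 had 4.97 and 5.75 cRPKM in asap, against 1.78 and 1.48 cRPKM in sap18sr45 (1.59 ± 0.40, SE; adjusted p = 0.00325).

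Of 9 tested iron genes, 4 were higher and none was lower in asap, with a median of 0.61. Over all tested genes the shares were 15.4% higher and 16.7% lower. FRO2, the root ferric chelate reductase, had 11.4 and 10.2 cRPKM in asap, against 4.74 and 4.33 cRPKM in sap18sr45 (1.13 ± 0.24, SE; adjusted p = 0.000581). The nicotianamine synthases NAS4 (1.53 ± 0.26) and NAS3 (1.49 ± 0.34) and the metal transporter IRT3 (1.63 ± 0.30) also rose, and none of these 4 calls was lost when any 1 of the compared libraries was left out. NAS3 differed in its order over the genotypes, since its level in Col0 (4.93 and 4.74 cRPKM) was close to that in asap (4.91 and 5.86 cRPKM) and above that in sap18sr45 (2.11 and 1.33 cRPKM).

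Of 24 tested nitrate genes, 5 were higher, 4 lower and 15 not called, beside 15.4% higher and 16.7% lower of all tested genes. NPF7.3 (NRT1.5), which loads nitrate into the root xylem, had 56.9 and 61.3 cRPKM in asap, against 15.0 and 16.7 cRPKM in sap18sr45 (1.80 ± 0.10, SE; adjusted p = 1.11e-13). NPF2.9, which moves nitrate into the root phloem, rose by 1.52 ± 0.23. The nitrate reductase NIA1 rose by 0.71 ± 0.11 and the nitrate sensor and transporter NPF6.3 (NRT1.1) by 0.45 ± 0.10. NIA1 had 28.3 and 32.4 cRPKM in asap, against 18.1 and 16.2 cRPKM in sap18sr45. Its sr45 and Col0 libraries had 24.3 to 30.9 cRPKM, so sap18sr45 was the lowest genotype. NPF5.15 had 3.62 and 3.61 cRPKM in asap, against 6.71 and 6.87 cRPKM in sap18sr45 (-1.01 ± 0.23, SE; adjusted p = 0.00128), and NPF4.6, also an abscisic acid importer, fell by 0.53 on the log2 scale. The lower genes numbered 2 without either sap18sr45 replicate or without asap replicate 1. In the phosphate list 4 of 11 tested genes were higher and 1 was lower, and 2 were higher without sap18sr45 replicate 1. The acid phosphatase PAP8 had 21.0 and 20.1 cRPKM in asap, against 9.58 and 10.5 cRPKM in sap18sr45 (0.93 ± 0.17, SE; adjusted p = 0.000126), and PPCK1, a kinase of phosphoenolpyruvate carboxylase, rose by 0.85 ± 0.19. The lower gene, PAP4, was not called without either sap18sr45 replicate (adjusted p = 0.174 and 0.129) or without asap replicate 2 (adjusted p = 0.153).

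Specialised metabolism showed its clearest change in the glucosinolate list, sulfur compounds of the Brassicaceae defence. Of 17 tested genes, 12 were higher in asap, 2 were lower and the median was 0.61. Across all tested genes 15.4% were higher and 16.7% lower. CYP79F1 and CYP79F2, which start the synthesis of aliphatic glucosinolates from methionine, both rose. CYP79F1 had 84.4 and 81.3 cRPKM in asap, against 35.0 and 30.9 cRPKM in sap18sr45, 40.1 and 38.6 cRPKM in sr45 and 10.6 and 10.1 cRPKM in Col0 (1.21 ± 0.09, SE; adjusted p = 4.12e-11). CYP79F2 had 15.6 and 17.6 cRPKM in asap, against 4.06 and 3.43 cRPKM in sap18sr45 (2.03 ± 0.23, SE; adjusted p = 9.19e-08). Later steps also rose, with the sulfotransferase SOT18 at 0.70 ± 0.13 and the side-chain oxygenase FMOGS-OX3 at 0.77 ± 0.14. MYB51, the activator of indolic glucosinolates, rose by 0.93 ± 0.20. By DESeq2 the higher genes SOT16 (log2 change 0.41, adjusted p = 0.107) and FMOGS-OX1 (0.50, adjusted p = 0.105) were not called. Without sap18sr45 replicate 1 their log2 changes were 0.30 and 0.44. ESP, which diverts glucosinolate breakdown to nitriles, and IGMT4 were called lower, but neither was called without sap18sr45 replicate 1 (adjusted p = 0.11 and 0.0765), sap18sr45 replicate 2 (0.0839 and 0.156) or asap replicate 2 (0.183 and 0.432).

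Of 18 tested glutathione transferases, 6 were higher and none lower. On the log2(cRPKM + 0.5) scale, where the median of all genes lay at 0.10, 11 were higher. GSTU13 was called higher but not by DESeq2 (log2 change 0.31, adjusted p = 0.086), and changed by 0.21 without sap18sr45 replicate 1. GSTU20, which takes part in glucosinolate synthesis, had 344 and 347 cRPKM in asap, against 205 and 214 cRPKM in sap18sr45 (0.61 ± 0.07, SE; adjusted p = 2.03e-08), and GSTU24 rose by 1.83 ± 0.35 and GSTF14 by 1.68 ± 0.27. Of 18 tested UDP-glycosyltransferases, which attach sugars to hormones and flavonoids, 4 were higher and 5 lower. Over all tested genes the shares were 15.4% higher and 16.7% lower. UGT74E2, which acts on the auxin indole-3-butyric acid, had 7.85 and 6.48 cRPKM in asap, against 1.75 and 0.91 cRPKM in sap18sr45 (2.24 ± 0.39, SE; adjusted p = 5.13e-05). The flavonol enzymes UGT89C1 (0.92 ± 0.21) and UGT78D1 (0.66 ± 0.10) rose. The 5 lower genes included UGT85A1, a cytokinin glycosyltransferase, at 6.19 and 6.42 cRPKM in asap, against 17.4 and 17.3 cRPKM in sap18sr45 (-1.56 ± 0.15, SE; adjusted p = 1.70e-09), and its neighbour UGT85A5 (-1.08 ± 0.18). Without sap18sr45 replicate 1 these 2 genes were the lower ones. Of 22 tested cytochrome P450 genes, 6 were higher and 2 lower, and 3 were higher without sap18sr45 replicate 1.

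Auxin genes numbered 41 tested, of which 9 were higher and 6 lower, and 26 were not called, beside 15.4% higher and 16.7% lower of all tested genes. LAX3, an auxin importer, had 15.7 and 14.9 cRPKM in asap, against 5.38 and 6.99 cRPKM in sap18sr45 (1.21 ± 0.19, SE; adjusted p = 1.05e-05). Of the PIN auxin exporters, PIN7 rose to 49.4 and 51.6 cRPKM in asap, against 28.9 and 35.8 cRPKM in sap18sr45 (0.55 ± 0.10, SE; adjusted p = 6.14e-05), while PIN3 fell by 0.30 on the log2 scale. AT1G72430, of the SAUR family of auxin-induced genes, had 146 and 144 cRPKM in asap, against 349 and 351 cRPKM in sap18sr45 (-1.38 ± 0.08, SE; adjusted p = 6.22e-14), and the repressor IAA3 (SHY2) fell by 0.42 on the log2 scale. The auxin list had 2 higher and 3 lower genes without sap18sr45 replicate 1, and 5 higher genes without sap18sr45 replicate 2.

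Of 13 tested wall loosening enzymes, 4 were higher, 3 lower and 6 not called, beside 15.4% higher and 16.7% lower of all tested genes. The expansin EXPA15 had 46.7 and 38.9 cRPKM in asap, against 9.93 and 9.05 cRPKM in sap18sr45 (2.05 ± 0.16, SE; adjusted p = 6.55e-11). Among the xyloglucan endotransglucosylases, XTH28 rose by 0.51 ± 0.10 and XTH27 fell to 256 and 263 cRPKM in asap, against 334 and 318 cRPKM in sap18sr45 (-0.44 ± 0.06, SE; adjusted p = 5.75e-06), beside the larger fall of XTH33. XTH17 was called higher at 0.74 ± 0.18, but not without sap18sr45 replicate 2 (adjusted p = 0.0551).

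Of 8 tested genes that sugar starvation induces, 3 were higher and 4 lower, with a median of -0.36. Across all tested genes 15.4% were higher and 16.7% lower. DYL1, a dormancy-associated gene, had 54.7 and 53.1 cRPKM in asap, against 96.9 and 84.3 cRPKM in sap18sr45 (-0.87 ± 0.10, SE; adjusted p = 7.28e-08), and MCCA, which degrades leucine, fell by 0.53 on the log2 scale. BCAT2, a branched-chain amino acid aminotransferase, rose by 0.81 ± 0.18. Both BCAT2 and MCCA were far above these levels in Col0, at 58.6 and 62.8 cRPKM for BCAT2, against 10.3 and 7.12 cRPKM in asap and 4.35 and 4.78 cRPKM in sap18sr45. The lower genes numbered 2, DYL1 and MCCA, without sap18sr45 replicate 1 or asap replicate 2.

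Clock-regulated GI, a late-day gene that promotes flowering, had 3.94 and 5.02 cRPKM in asap, against 1.98 and 1.95 cRPKM in sap18sr45 (1.09 ± 0.20, SE; adjusted p = 0.000126), and RVE7 rose by 1.39 ± 0.22. LHY, the morning oscillator gene, was not called, at 112 and 111 cRPKM in asap, against 102 and 96.9 cRPKM in sap18sr45. Of 17 tested cuticle genes 5 were higher and 4 lower, beside 15.4% higher and 16.7% lower of all tested genes. LACS3, which activates fatty acids, at 0.84 ± 0.12 and KCS17, which elongates them, at 1.32 ± 0.25 were among the higher cuticle genes. The lower genes numbered 1 without sap18sr45 replicate 1 and 2 without sap18sr45 replicate 2. Cell cycle genes were called higher in 3 of 24 cases, with 20 not called, and histones in 3 of 9, beside 15.4% of all tested genes. The cell cycle list lost its higher calls without sap18sr45 replicate 1, and the histone list lost its own without sap18sr45 replicate 2. Without asap replicate 2 they had 6 and 5 higher genes. Among 12 tested loci of the mitochondrial DNA insertion of chromosome 2, which shares its sequence with the mitochondrial genome, 1 was higher. AT2G01021, a short locus beside ribosomal RNA genes, stood at 40632 and 14830 cRPKM in asap, against 6189 and 9734 cRPKM in sap18sr45, and was not called (adjusted p = 0.404).

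**Figure D4:**
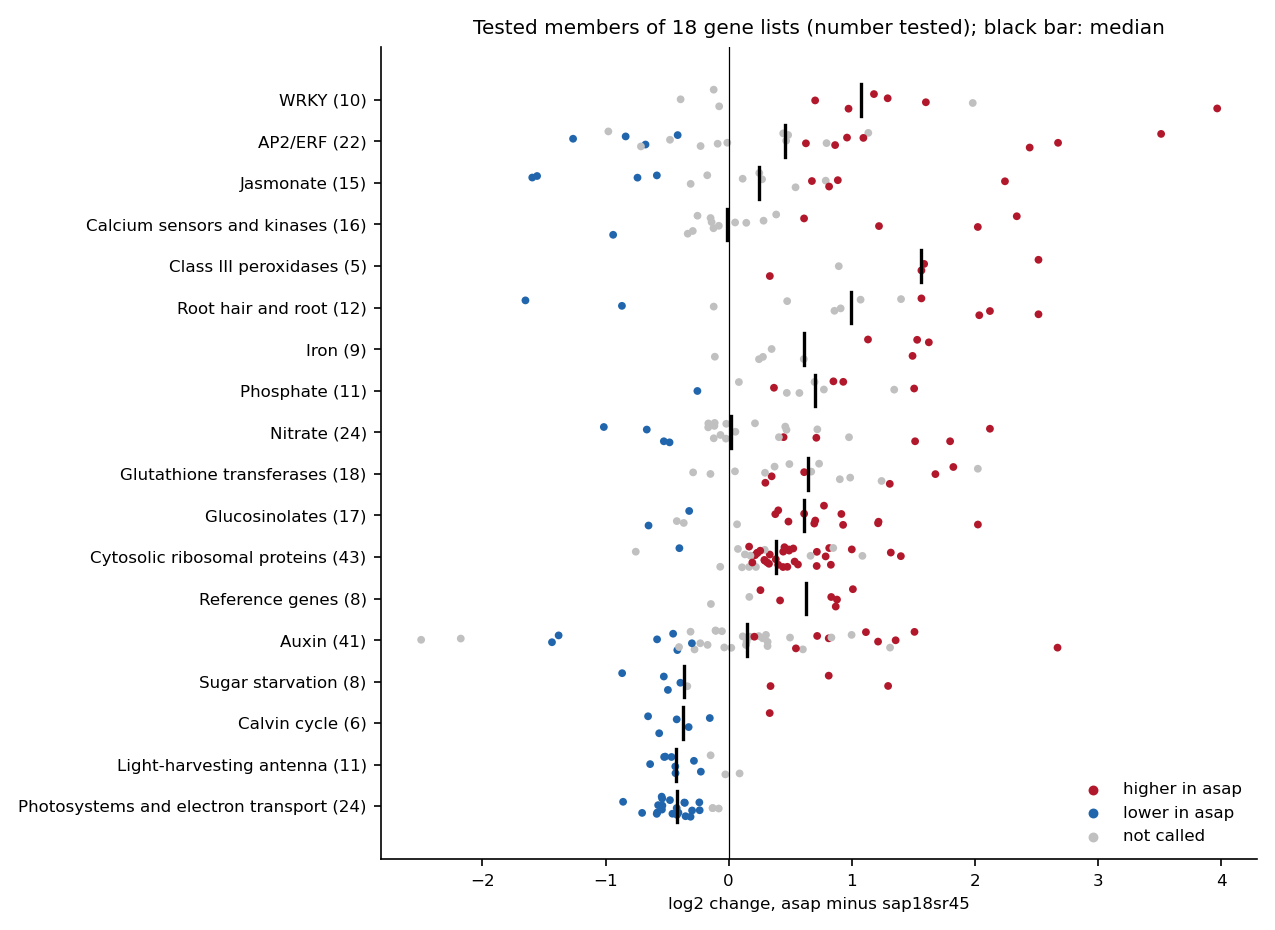
Log2 change, asap minus sap18sr45, of each tested member of 18 gene lists (points; colours show members called higher, lower or not called; black bars, list medians; numbers of tested members in parentheses). The photosystem list lies left of 0 with a median of -0.42 and 21 of 24 members lower (13 lower and 2 higher with quantile normalization), and the ribosomal protein list lies right of it with a median of 0.38 and 30 of 43 higher.

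The plot of list members shows lists that moved to 1 side, such as the photosystem genes, beside lists that spread to both, such as the jasmonate and nitrate genes. Over the 34 lists, 232 of 478 tested members were called, beside 32.1% of all tested genes. The lists were chosen with results of these data known, so nothing is read from that difference. Another 6 families were taken after their members' values were seen, and their counts are a description only. Of 22 tested NLR immune receptors, which detect pathogen effectors inside the cell, 12 were lower in asap and none was higher, with a median of -0.50. WRR4, a white rust resistance gene, had 13.4 and 15.9 cRPKM in asap, against 27.0 and 27.0 cRPKM in sap18sr45 (-0.98 ± 0.09, SE; adjusted p = 3.44e-09), and AT1G31540 fell by 1.15 on the log2 scale. For WRR4 the sr45 libraries had 31.3 and 30.1 cRPKM and the Col0 libraries 17.9 and 17.8 cRPKM, so asap was nearer to Col0 than to either of the other mutants. Without asap replicate 2, 2 receptors were called higher.

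In the other families, transporters and lipases were called higher more often than lower, beside 15.4% higher and 16.7% lower of all tested genes. Of 9 tested UMAMIT-like amino acid transporters, 6 were higher and none lower, and SIAR1, an amino acid transporter, had 47.4 and 55.8 cRPKM in asap, against 12.2 and 12.8 cRPKM in sap18sr45 (1.95 ± 0.13, SE; adjusted p = 1.45e-12). The sr45 and Col0 libraries had 11.0 to 12.1 cRPKM of SIAR1. Of 18 tested MATE transporters 9 were higher and 1 was lower, and without sap18sr45 replicate 1 the higher genes numbered 3 among the MATE and 3 among the UMAMIT-like transporters. Of 19 tested GDSL lipases, 10 were higher and none lower, with GLL23 at 131 and 117 cRPKM in asap, against 47.6 and 58.4 cRPKM in sap18sr45 (1.13 ± 0.10, SE; adjusted p = 4.22e-10), and GLL22 at 2.57 ± 0.33. Of 9 tested lipid transfer proteins 5 were higher and 1 was lower. The lower one, AT1G62510, had 99.9 and 111 cRPKM in asap, against 217 and 231 cRPKM in sap18sr45 (-1.18 ± 0.07, SE; adjusted p = 4.67e-13), and its level in Col0 was 468 and 494 cRPKM. Of 29 tested proteins with an RNA recognition motif 9 were lower and 3 higher, and 5 were lower without either sap18sr45 replicate. BRN2, which destabilises the mRNA of the flowering gene SOC1, fell to 7.90 and 6.96 cRPKM in asap, against 17.5 and 15.7 cRPKM in sap18sr45 (-1.28 ± 0.16, SE; adjusted p = 5.37e-07).

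The levels in all 4 genotypes show where asap and sap18sr45 stood. Both asap libraries were above the other 6 libraries for 995 of the tested genes (18.9%) and below them for 955 (18.2%), whereas both sap18sr45 libraries were above the others for 175 (3.33%) and below them for 182 (3.46%). Among the 812 rises, 637 (78.4%) had asap above all others and 100 (12.3%) had sap18sr45 below all others. Among the 877 falls, 694 (79.1%) had asap below all others and 87 (9.92%) had sap18sr45 above all others. These shares use the contrast that made the calls and are given as a description. ZAT10, WRKY40, NUDT4 and SIAR1 belong to the first kind, and AGL67, XTH33 and AT1G56300 to the last. The kinds overlap. WRKY40 was also lowest in sap18sr45 (2.18 and 1.92 cRPKM, against 3.38 or more elsewhere). XTH33 was also lowest in asap (6.79 and 5.45 cRPKM, against 12.9 or more elsewhere).

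The contrast of sr45 with Col0 shares no library with that of asap and sap18sr45. It had 802 genes higher in sr45 (15.2%) and 867 lower (16.5%). Of the 812 rises from sap18sr45 to asap, 289 were also higher in sr45 than in Col0, which is 35.6% of the rises and 36.0% of the genes higher in sr45, and 59 were lower there, 7.27% of the rises and 6.81% of the genes lower in sr45. Of the 877 falls, 380 were also lower in sr45, 43.3% of the falls and 43.8% of the genes lower in sr45, and 101 were higher there, 11.5% of the falls and 12.6% of the genes higher in sr45. CYP79F1 and the ribosomal protein sum follow the first of these patterns and STP1 the second, since each moved the same way between Col0 and sr45 and between sap18sr45 and asap. WRR4 moved apart, being above Col0 in sr45 and below sap18sr45 in asap.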

How the data were processed

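Whole-seedling RNA of 4 genotypes was sequenced in 2 libraries each. The authors mapped reads and deposited, per gene, raw read counts and cRPKM (RPKM corrected for mappability), quantified with vast-tools; the submitters' notes name the build TAIR10. For the strand setting of the counting, the sources used here name none. The table analysed held 9998 loci, of which 9536 had values, all on chromosomes 1 and 2; the rest of the genome was not analysed here. One unnamed line, with up to 0.00281% of the counts in a library, was dropped. Gene symbols came from the table or from RefSeq (TAIR10.1, names only), in which 98.9% of loci were found.

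The deposited counts were tested with edgeR 4.0.16 under R 4.3.3. After filterByExpr, 5261 genes remained, which were scaled by TMM, and fitted over all 8 libraries with a robust quasi-likelihood model by genotype (4 residual degrees of freedom). Asap minus sap18sr45 was tested 2-sided with Benjamini-Hochberg adjustment over all genes tested, at 0.05. SEs are the absolute log2 change divided by the square root of F. Where a group was at 0, folds used a floor of 3 counts over its libraries, and floors cover counting error only. Libraries held 1295244 to 4052420 counts. The deposited cRPKM values give levels and were tested with limma 3.58.1 as an alternative. The fold rule required at least 2-fold in all pairs of libraries. In both libraries of 1 line, over 5 cRPKM and at least 50 counts were also required. The folds were taken on counts after quantile normalization, which the study also used. The procedure was tested on simulated data.

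Named genes were SR45, the 12 largest rises and 12 largest falls among called genes with a symbol, at least 5 CPM and the same direction in all 4 library pairs, and up to 3 called genes per list and direction with the smallest adjusted p (AGL67 was already singled out). Other genes and 6 families are named as chosen after their values were seen, or to complete a count. The members and lists were chosen with earlier results of these data known. Alternatives were DESeq2 1.42.0, other size factors, quantile normalization and genotype weights (voom), other filters, cRPKM with pseudocounts of 0.5 and 1, the 4 compared libraries alone, each compared library left out, a replicate block, and removal of the mitochondrial insertion loci.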

Additional observations from a re-analysis of the deposited data

How the results depend on the processing

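Without 1 of the compared libraries, the calls numbered 990 to 1857, the higher genes 447 to 922, the lower genes 543 to 935, the listed genes called 154 to 242 (232 with all libraries) and the named genes called 111 to 139 of 147; the lowest value was without sap18sr45 replicate 1 each time. Without an sap18sr45 library that line has 1 library, which is assumed to vary like the other genotypes. On log2(cRPKM + 0.5) and log2(cRPKM + 1) 1408 and 1446 genes were called, of which 499 and 504 were lower. The fold rule, run on quantile-normalized counts, gave 156 genes, and an adjusted p under 0.05 with at least 2-fold gave 419. DESeq2 called 1243 genes (591 higher, 652 lower), the 4 compared libraries alone 1471, and the remaining settings on counts 1598 to 1785. None of the 147 genes chosen by the naming rule turned its direction under any of these settings. Fewer of them kept their call, with 126 of 147 in DESeq2, 123 on log2(cRPKM + 0.5) and 126 on log2(cRPKM + 1). Outside these 147 genes, PSAO and LHCB1.3 turned to higher with quantile normalization (0.19 and 0.15). The labels do not say whether replicate numbers pair the libraries. The correlation across genes between the replicate differences of asap and sap18sr45 was 0.009. It shows no large shared difference but cannot settle whether libraries were paired. With a replicate block 1604 genes were called (767 higher, 837 lower), 223 of them on the lists, and 143 of the 147 named genes. Counts of 1 to 20 per library, as for DTXL2, CYCA1-2 or RPF2, limit the precision of their folds.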
